A study of Mus musculus with 29 samples.

Results

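The genes described here are 7 regulators that mouse tissues use mainly before birth: the RNA-binding proteins Lin28a and Lin28b, the RNA-binding proteins Igf2bp1, Igf2bp2 and Igf2bp3, and the chromatin proteins Hmga1 and Hmga2. They are 7 of the 51912 gene IDs in the deposited count table. They were selected on their measured levels over age in these samples, because expression was lower at later ages in both genotypes, and Igf2bp1 was also picked for its steep drop by embryonic day 18.5. Their course over age therefore chose them, and it is given as a description with no test. The effect of genotype within an age was not used in the choice and was tested. Its change with age was tested too, but a choice on both genotypes can favour genes whose courses are alike.

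Gene expression had been measured by bulk RNA sequencing in 29 mouse ovary samples, to ask how control of the cell cycle bears on ovary development. The genotypes were wild type (Cdkn1b +/+) and a homozygous null of Cdkn1b (Cdkn1b -/-, called Cdkn1b-null); Cdkn1b encodes p27Kip1, which inhibits cyclin-dependent kinases. The ages were embryonic days 13.5 (E13.5) and 18.5 (E18.5), day 8 after birth (PND8) and adulthood at 12 weeks (12wk). Papain was used to dissociate the ovaries, and total RNA came from the cells. There were 4 wild-type samples at each age, 4 Cdkn1b-null samples at E18.5 and 3 at each other age. The labels give no strain, litter or pooling and no cell sort, so p-values measure the spread between these samples, which may be partly technical.

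Lin28a and Lin28b bind the precursors of let-7 microRNAs and block their maturation. Mature let-7 pairs through its seed with messenger RNAs that include those of Lin28b, Igf2bp1, Igf2bp2, Igf2bp3 and Hmga2, so the Lin28 proteins and let-7 hold each other in check as embryonic tissue matures. Igf2bp proteins bind messenger RNAs such as Igf2 and protect or localise them, and Hmga proteins bend DNA at AT-rich stretches and keep chromatin open in dividing embryonic cells. In the fetal ovary, Lin28a is known as a gene of primordial germ cells, the migratory precursors of oocytes, while Hmga2 and the Igf2bp genes are also active in somatic cells.

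Library totals were 14.1 to 24.9 M counts before birth and 24.1 to 48.2 M counts after it. Depth and age thus changed together across birth. A library's floor of 3 counts was 0.0693 to 0.231 CPM (counts per M counts of the library, scaled by the trimmed mean of M-values over all 29 libraries). Cdkn1b was 19.1 to 26.1, 95.2 to 123, 133 to 173 and 124 to 265 CPM in wild type and 4.29 to 4.75, 9.44 to 15.6, 65 to 79.8 and 42.1 to 56.2 CPM in Cdkn1b-null ovaries at the 4 ages in order, and the genotypes did not overlap at any age. Which part of the gene the null allele lacks is not given in the sources used here. The E13.5 wild-type replicate 3 held 19% haemoglobin counts, against 0.702 to 1.05% in the other 3 libraries of its group. Among the E13.5 Cdkn1b-null libraries, replicate 3 had a summed level of 6 germ cell markers of 1090 CPM, against 279 and 576 CPM in the others. The 9 primordial germ cell markers were instead highest in replicate 4, at 1170 CPM, against 434 CPM in replicate 1 and 591 CPM in replicate 3. Of the 9 granulosa lineage markers 6 to 8 were above the floor in the E13.5 libraries, 8 or 9 at E18.5 and all 9 later, and they summed to 297 to 5710 CPM over all libraries. In bulk RNA, fewer cells of a type and less RNA per cell cannot be told apart.

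The 7 genes were compared for let-7 seed matches in their sequences. RefSeq (GRCm38.p6) gave 11 mouse let-7 and miR-98 mature forms, of which 10 share the seed (bases 2 to 8) shown in capitals, and let-7j carries GAGGUAU instead. Of these, 3 are shown because they differ outside the seed and not within it.
mmu-let-7a-5p: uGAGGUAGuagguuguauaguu
mmu-let-7g-5p: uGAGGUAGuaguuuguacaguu
mmu-miR-98-5p: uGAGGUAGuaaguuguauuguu
The 7-base match to this seed, CTACCTC on the transcript strand, was looked for in the 3' untranslated region (UTR) of 1 transcript per gene in GENCODE M21. All 7 genes held it: Hmga2, Igf2bp1 and Lin28b 4 times each, Lin28a 2 times, and Igf2bp2, Igf2bp3 and Hmga1 once each. Of 20971 mouse UTRs, 8.96% held the match and 7.64% held its reverse complement GAGGTAG. Only 12 UTRs (0.0572%) held 4 or more matches, and 3 of those belonged to the genes described here.

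For each gene the site nearest the stop codon is shown, because it is where the shared letters can be compared. Each line is the transcript strand on GRCm38, with the seed match in capitals and the base after it last.
Lin28a, chr4:134005189-134005210, minus strand: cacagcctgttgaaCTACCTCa
Lin28b, chr10:45381022-45381043, minus strand: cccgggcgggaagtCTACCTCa
Igf2bp1, chr11:95961778-95961799, minus strand: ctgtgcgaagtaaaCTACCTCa
Igf2bp2, chr16:22059473-22059494, minus strand: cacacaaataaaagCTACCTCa
Igf2bp3, chr6:49086787-49086808, minus strand: gcatttttactcaaCTACCTCa
Hmga1, chr17:27563278-27563299, plus strand: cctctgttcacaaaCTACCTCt
Hmga2, chr10:120364224-120364245, minus strand: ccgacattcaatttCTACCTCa
The bases upstream of the match differ among the genes, and 6 of the 7 sites are followed by an A, which is known to favour targeting by microRNAs. The Hmga1 site is followed by t. Over all 17 sites of the 7 genes 9 are followed by an A, with 1 of 4 in Lin28b and in Hmga2, 3 of 4 in Igf2bp1 and 2 of 2 in Lin28a. Long UTRs hold more matches by length alone, so each gene was set beside UTRs of 80 to 125% of its own length. Among those, as many matches were found in 0.0829% for Hmga2, 0.167% for Igf2bp1, 0.223% for Lin28b and 2.03% for Lin28a. The single matches of Igf2bp3, Igf2bp2 and Hmga1 were shared by 13.3%, 12% and 8.1% of UTRs of like length. A match describes these letters only. Short RNAs were not measured here, and the let-7 hairpin genes in the table reached at most 1 count in any library. The host gene Mir99ahg, named after its values were seen, was counted in all 29 libraries, at 1.42 to 71.6 CPM. Its level does not give that of mature let-7.

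**Figure D1:**
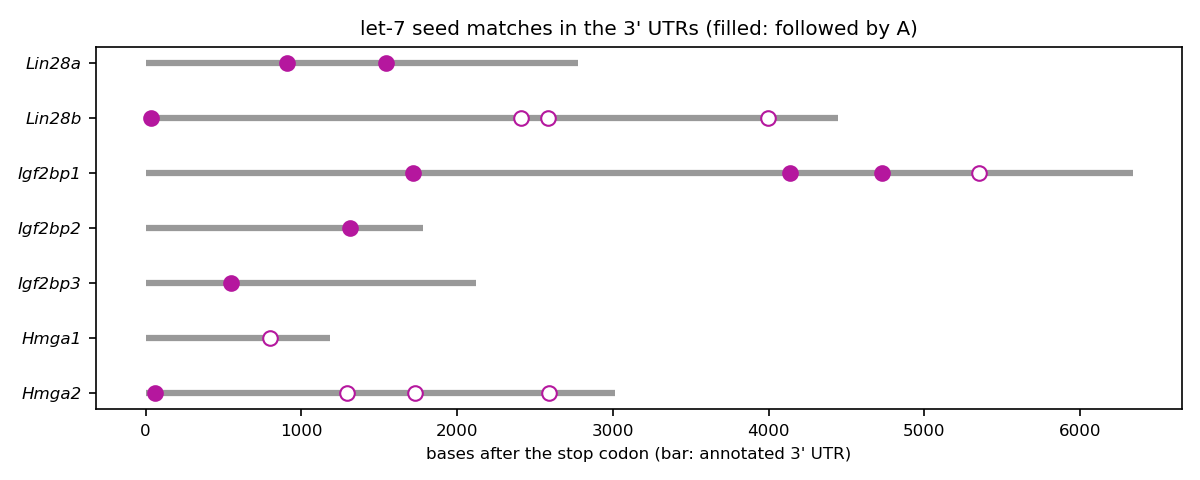
Position of each let-7 seed match in the 3' UTR of the 7 genes, in bases after the stop codon; grey bars are the annotated UTRs, and filled points are matches followed by A. The first match of Hmga2 lies 58 bases and that of Lin28b 36 bases after the stop codon, and 3 of the 4 Igf2bp1 matches are followed by A.

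The 7 genes differed in when they became low. Lin28a, Igf2bp1 and Hmga2 were already low by E18.5, with 1.89%, 5.69% and 3.23% of the wild-type E13.5 mean left. Lin28b and Igf2bp3 were low only after birth, with 51.9% and 34.2% left at E18.5 but 2.87% and 3.11% at PND8. Igf2bp2 kept 46.1% at E18.5 and 49.5% at PND8 and was low only in the adult, at 2.73% (1.7% without the 12wk replicate 3). Hmga1 kept 21.9%, 36.9% and 19.2% at E18.5, PND8 and 12wk, and at 12wk this was the largest share of the 7.

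**Figure D2:**
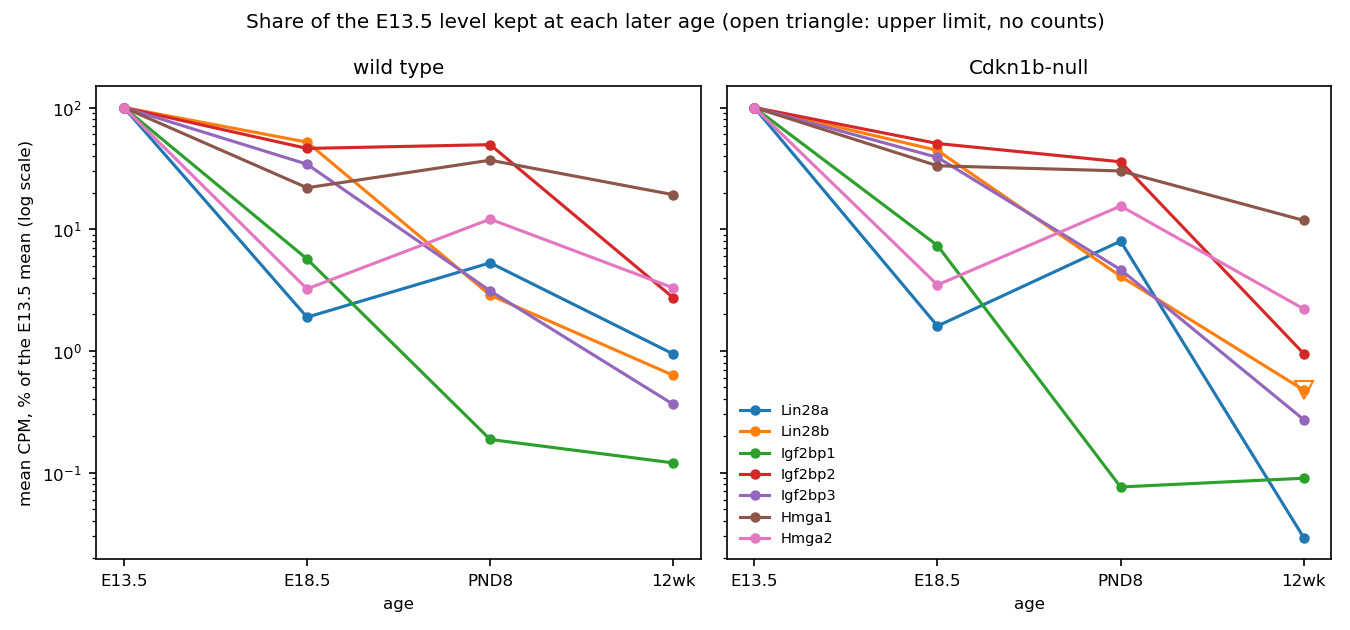
Mean CPM at each age as a percentage of the E13.5 mean of the same genotype, on a log axis, for the 7 genes in wild type (left) and Cdkn1b-null (right); the open triangle marks an upper limit where no count was seen. Igf2bp2 stays near its E18.5 share until PND8 in wild type, whereas Lin28a, Hmga2 and, in wild type, Hmga1 are higher at PND8 than at E18.5.

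Lin28a (ENSMUSG00000050966; GRCm38 chromosome 4, 134003330 to 134018841, minus strand) encodes the cytoplasmic let-7 blocker that marks primordial germ cells. At E13.5 it was 31.6, 26.3, 39 and 29.4 CPM in the wild-type replicates 1 to 4, and 44.1, 36.3 and 38.1 CPM in the Cdkn1b-null replicates 1, 3 and 4. At E18.5 the wild-type libraries had 0.103, 1.84, 0.145 and 0.293 CPM and the Cdkn1b-null libraries 0.24, 0.732, 1.28 and 0.283 CPM. Every E18.5 library was thus far below every E13.5 library, and 1 wild-type library stood above its group. Without that library, replicate 2, the wild-type share kept at E18.5 was 0.571% instead of 1.89%.

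At PND8, Lin28a was higher again: 2.55, 0.866, 0.782 and 2.49 CPM in wild type, and 1.66, 5.31 and 2.47 CPM in Cdkn1b-null ovaries. The wild-type groups at E18.5 and PND8 overlapped, while the Cdkn1b-null groups did not. At 12wk wild type had 0.115, 0.0321, 0.728 and 0.315 CPM, and the Cdkn1b-null group held 1 count in 3 libraries. That 1 count is 0.0287% of the E13.5 level, with an exact 95% interval of 0.000727 to 0.16% that covers counting error only.

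The libraries with more Lin28a after birth were also those with more oocyte markers. The 9 oocyte markers, which include the zona pellucida genes and Gdf9, summed to 554, 154, 175 and 600 CPM in the wild-type PND8 libraries in replicate order, and to 400, 942 and 514 CPM in the Cdkn1b-null ones. At 12wk the wild-type sums were 13, 7.81, 107 and 33.3 CPM, and replicate 3, with the highest sum, also had the highest Lin28a. At E18.5 the high wild-type replicate 2 had 175 CPM of the 9 primordial germ cell markers, against 27 to 59.2 CPM in the others, and 136 CPM of oocyte markers against 35 to 86.4 CPM. The pluripotency factor Sox2, a defining primordial germ cell marker, was at 0 in most libraries after E13.5. Most of the 9 primordial germ cell markers stayed above the floor, however: 6 to 8 at E18.5, 7 or 8 at PND8 and 5 to 8 at 12wk. Over both genotypes the 9 summed to 18.7 to 175 CPM at E18.5, 58.3 to 147 CPM at PND8 and 22.7 to 55.7 CPM at 12wk. The part of germline content in the Lin28a values was not tested.

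**Figure D3:**
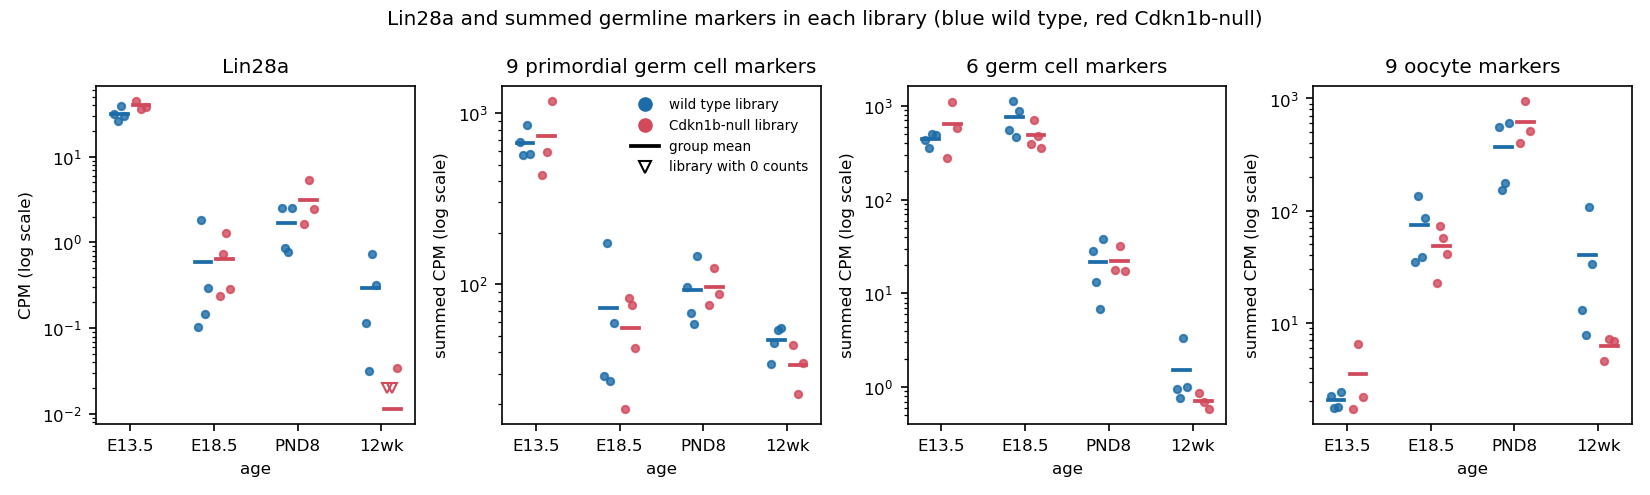
Lin28a and the summed CPM of 9 primordial germ cell, 6 germ cell and 9 oocyte markers in each library by age, on log axes; points are libraries (blue wild type, red Cdkn1b-null), lines are group means and open triangles are libraries with 0 counts. At PND8 and 12wk the order of libraries in Lin28a resembles that in the oocyte markers, and the highest wild-type 12wk library in both is replicate 3.

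Lin28b (ENSMUSG00000063804; chromosome 10, 45376620 to 45486395, minus strand) is the paralogue that acts largely on let-7 primary transcripts. It was the least abundant of the 7 genes per length at E13.5. Its wild-type libraries had 10.7, 4.65, 11.9 and 6.96 CPM at E13.5 and 3.15, 3.12, 4.48 and 7.06 CPM at E18.5, so these groups overlapped. At PND8 they were at 0.34, 0.135, 0.0539 and 0.455 CPM, below every E18.5 library, and at 12wk 2 of the 4 had no count.

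In Cdkn1b-null ovaries Lin28b was 6.44, 7.75 and 6.96 CPM at E13.5, 1.2, 3.19, 3.55 and 4.57 CPM at E18.5, and 0.323, 0.352 and 0.193 CPM at PND8. No Lin28b count was seen in the 3 Cdkn1b-null libraries at 12wk. Against the group's floor of 3 counts over the summed libraries, this is at most 0.476% of the E13.5 mean. Both Lin28 genes were thus near the limit of detection in the adult, but Lin28a was low from E18.5 on and Lin28b from PND8 on.

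Igf2bp1 (ENSMUSG00000013415; chromosome 11, 95957163 to 96005940, minus strand) encodes the family member best known for binding Actb and Myc messenger RNAs. In wild type it was 301, 254, 295 and 201 CPM at E13.5 and 15.4, 15.6, 12.7 and 16 CPM at E18.5. In Cdkn1b-null ovaries it was 286, 131 and 200 CPM at E13.5 and 20.3, 10.7, 17.9 and 11.4 CPM at E18.5. At PND8 the level was 0.238, 0.298, 0.835 and 0.589 CPM in wild type and 0.0924, 0.088 and 0.289 CPM in Cdkn1b-null libraries. Igf2bp1 thus went from one of the more abundant genes to near the floor in both genotypes, with a difference before birth and another across it. The log2 difference was -4.15 (SE 0.172) from E13.5 to E18.5 and -4.98 (SE 0.36) from E18.5 to PND8 in wild type, and -3.75 (SE 0.338) and -6.67 (SE 0.448) in Cdkn1b-null ovaries. The 12wk libraries, at 0.0315 to 0.746 CPM in wild type and 0.0867 to 0.294 CPM in Cdkn1b-null ovaries, overlapped the PND8 libraries.

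Igf2bp3 (ENSMUSG00000029814; chromosome 6, 49085223 to 49214957, minus strand), a paralogue found mostly in embryonic and tumour tissue, had tight groups before birth. Its wild-type libraries were at 163 to 191 CPM at E13.5, 63, 67, 59.6 and 57.4 CPM at E18.5, 6.58, 3.28, 6.98 and 5.59 CPM at PND8 and 0.566, 0.358, 0.947 and 0.75 CPM at 12wk. The Cdkn1b-null libraries were at 139 to 187 CPM, then 64.2, 65.5, 64.6 and 65.2 CPM, then 5.12 to 9.7 CPM and 0.227 to 0.682 CPM. No group overlapped the next age in either genotype, so Igf2bp3 was stepwise lower at every age.

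Igf2bp2 (ENSMUSG00000033581; chromosome 16, 22059009 to 22163299, minus strand) is the member of the family that adult tissues retain most often. Wild-type levels were 177, 275, 164 and 169 CPM at E13.5, 76.1, 91.2, 101 and 93.6 CPM at E18.5, 86.6, 94.7, 110 and 96.4 CPM at PND8 and 4.65, 1.09, 11.5 and 4.25 CPM at 12wk. The E18.5 and PND8 groups overlapped, and all 12wk libraries were far below both. Whether the wild-type PND8 mean was above or below the E18.5 mean depended on the scaling: with plain library totals the shares of E13.5 were 49.8% at E18.5 and 43.5% at PND8.

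In Cdkn1b-null ovaries Igf2bp2 was 235, 173 and 163 CPM at E13.5, 104, 98.3, 102 and 80.5 CPM at E18.5, 76.7, 70.5 and 57.3 CPM at PND8 and 0.65, 3.1 and 1.66 CPM at 12wk. Here every PND8 library was below every E18.5 library. The wild-type 12wk library with the most Igf2bp2, replicate 3, was also the one with the most oocyte markers and Lin28a.

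**Figure D4:**
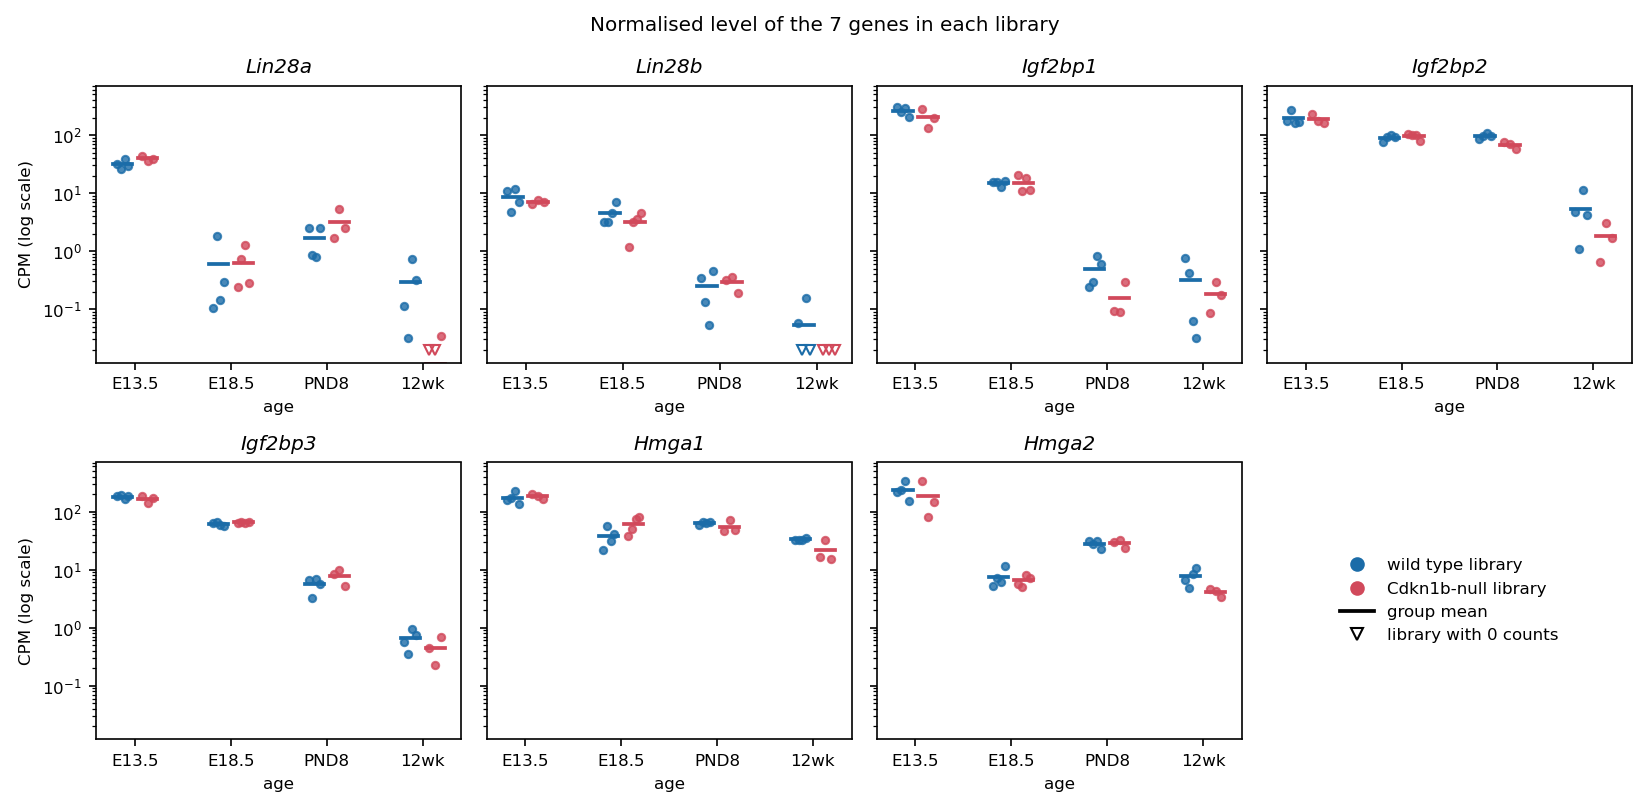
CPM of each of the 7 genes in every library, on a log axis, by age and genotype (blue wild type, red Cdkn1b-null); bars are group means and open triangles are libraries with 0 counts. Lin28a and Hmga2 dip at E18.5 and are higher at PND8, Igf2bp1 and Igf2bp3 are lower at each step to PND8, and Igf2bp2 drops between PND8 and 12wk.

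Hmga2 (ENSMUSG00000056758; chromosome 10, 120361275 to 120476469, minus strand) encodes the embryonic architectural chromatin factor whose loss gives small mice. It was 213, 233, 333 and 149 CPM in wild type and 333, 80.1 and 148 CPM in Cdkn1b-null ovaries at E13.5. At E18.5 it was 5.24, 7.25, 6.12 and 11.3 CPM and 5.65, 5.07, 7.97 and 7.3 CPM. At PND8 it was 31, 27.7, 31.4 and 22.2 CPM and 30.1, 32.7 and 24 CPM, and at 12wk 6.68, 4.89, 8.25 and 10.7 CPM and 4.68, 4.3 and 3.42 CPM. Hmga2 was thus low at E18.5, and every PND8 library of either genotype was above every E18.5 library. The log2 difference from E18.5 to PND8 was 1.81 (SE 0.24) in wild type and 2.09 (SE 0.185) in Cdkn1b-null ovaries.

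With plain library totals in place of the trimmed mean scaling, all genes moved by 0.16 (log2) in the wild-type E18.5 group and by -0.14 in the wild-type PND8 group, and the wild-type Hmga2 shares kept were 3.56% and 10.8% in place of 3.23% and 12.1%. The 8 stromal markers, which include Pdgfra and Col1a1, summed to 1910 to 3850 CPM at E13.5, 2170 to 4450 CPM at E18.5 and 5620 to 9890 CPM at PND8. Other markers were also higher at PND8. The granulosa lineage markers summed to 787 to 1260 CPM at E18.5 and 3000 to 3990 CPM at PND8. Proliferation markers summed to 320 to 1070 CPM and 1320 to 1950 CPM. The part of any of these markers in the Hmga2 values was not tested. The low E13.5 Cdkn1b-null library, replicate 3, had the highest sum of the 6 germ cell markers but not of the 9 primordial germ cell markers. It was also the lowest of its group for Igf2bp1 and Igf2bp3. The Cdkn1b-null share of Hmga2 kept at PND8, 15.5%, was 25.4% without the E13.5 replicate 1 and 12.1% without that replicate 3.

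Hmga1 (ENSMUSG00000046711; chromosome 17, 27556497 to 27563674, plus strand) encodes the broader architectural factor of proliferating cells. Wild-type libraries were at 160, 168, 225 and 136 CPM at E13.5, 21.6, 56.2, 31.6 and 41.2 CPM at E18.5, 59.3, 64.8, 63.4 and 66.1 CPM at PND8 and 32.8, 32.5, 31.9 and 34.9 CPM at 12wk. Cdkn1b-null libraries were at 200, 186 and 163 CPM, then 38.6, 50.2, 74.9 and 79.9 CPM, then 45.5, 71.6 and 48.2 CPM, and 16.6, 32.9 and 15.5 CPM. In wild type the PND8 libraries were all above the E18.5 libraries, whereas in Cdkn1b-null ovaries these ages overlapped. RSEM shares reads between similar genes, so Hmga1 values are uncertain where its near-identical copy Hmga1b could take reads. Hmga1b itself stayed at or below 5.21 CPM.

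Compared per kilobase of exon, Hmga1 had the highest mean at every age, at 81 CPM per kb in wild type at E13.5. Hmga2, Igf2bp1, Igf2bp2 and Igf2bp3 followed at 34.2, 27.1, 26.5 and 22.1 CPM per kb, with neighbouring ranges that overlapped. Lin28a, at 7.9 CPM per kb, and Lin28b, at 0.946 CPM per kb, were each clear of their neighbours. At PND8 the wild-type order was Hmga1 (29.8), Igf2bp2 (13.1) and Hmga2 (4.14), each clear of the next, followed by Igf2bp3 (0.687) and Lin28a (0.418), which overlapped, and then Igf2bp1 (0.0506) and Lin28b (0.0271), which also overlapped. At 12wk Hmga1, at 15.5 CPM per kb, was clear of Hmga2 (1.13) and Igf2bp2 (0.724), which overlapped each other and lay above Igf2bp3 (0.0803).

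Loss of Cdkn1b left the 7 genes without a called difference at any age (edgeR quasi-likelihood test, Benjamini-Hochberg adjusted p under 0.05 over all genes tested). At E13.5, 0 of 7 genes were called, beside 0.00606% of all genes tested. At E18.5, 0 of the 6 that passed the filter on low counts were called, beside 4.99%; Lin28a did not pass. At PND8, 0 of 7 were called beside 0.349%, and at 12wk 0 of 4 beside 0.0115%, where Lin28a, Lin28b and Igf2bp1 did not pass. Cdkn1b itself was called at the first 3 ages, but at E13.5 in only 2 of 7 fits with 1 library left out. At 12wk it was not called (log2 difference -1.85, adjusted p = 0.211 in edgeR). An uncalled gene is therefore not shown to be unchanged, least of all at E13.5 and 12wk. At an unadjusted edgeR p under 0.05 there were 0, 0, 2 and 2 of these genes at the 4 ages in order. The share of all genes under that threshold is not given here, so these counts are not read as a result about the 7. DESeq2 called 0, 0, 1 and 0, and limma-voom called none at any age. At PND8, the age of the 1 call, DESeq2 called 824 genes over the whole table, beside 62 in edgeR.

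The largest departure relative to its error was Igf2bp2 at PND8, which was lower in Cdkn1b-null ovaries, with a log2 difference of -0.52 (SE 0.108, 95% interval -0.77 to -0.28). It was the only one of the 7 genes whose genotypes did not overlap at PND8, where 14.7% of all genes did not. Its adjusted p was 0.088 in edgeR, 0.00189 in DESeq2 and 0.0172 with no filter on low counts, and between 0.0519 and 0.988 in the other alternatives. The estimate ran from -0.62 to -0.42 when each replicate was left out in turn. Igf2bp1 was also lower at PND8, with a log2 difference of -1.68 (95% interval -3.16 to -0.21, adjusted p = 0.272 in edgeR), but at levels below 1 CPM in both genotypes. Without the Cdkn1b-null replicate 4 that difference was -2.42.

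At 12wk all 4 tested estimates were below 0. The 9 oocyte markers summed to 7.81 to 107 CPM in the wild-type and 4.6 to 7.17 CPM in the Cdkn1b-null libraries of that age, so the genotypes did not overlap in these either; their part in the 12wk differences was not tested. Hmga2 was lower, with a log2 difference of -0.89 (SE 0.296, 95% interval -1.58 to -0.21, adjusted p = 0.44 in edgeR), and its genotypes did not overlap, as was so for 9.69% of all genes. For Hmga1 the difference was -0.62 (95% interval -1.18 to -0.06), for Igf2bp2 -1.56 (-3.4 to 0.27) and for Igf2bp3 -0.52 (-1.75 to 0.71). With 1 library left out the Igf2bp2 difference was -0.9 (without the wild-type replicate 3) to -2.16 (without the Cdkn1b-null replicate 3). Igf2bp2 and Igf2bp3 intervals thus include no difference and also differences of over 1 on the log2 scale.

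Before birth the intervals of several genes were narrow. At E18.5 the difference was 0.06 for Igf2bp3 (95% interval -0.14 to 0.26), 0.08 for Igf2bp2 (-0.18 to 0.33) and 0.01 for Igf2bp1 (-0.46 to 0.48). Hmga1 had the largest E18.5 estimate, 0.69 higher in Cdkn1b-null ovaries (-0.03 to 1.41, adjusted p = 0.246 in edgeR). Beside it, 5 proliferation markers, which include Mki67 and Top2a, summed to 320 to 494 CPM in the wild-type and 806 to 1070 CPM in the Cdkn1b-null libraries of that age; their part in the Hmga1 value was not tested. At E13.5 the estimates ran from -0.39 for Igf2bp1 to 0.29 for Lin28a, and none of the 7 genes had genotypes that did not overlap, beside 3.84% of all genes. At E18.5 none of the 6 did either, beside 14.5%. The E13.5 estimate of Hmga2, -0.34, became 0.03 without the Cdkn1b-null replicate 3.

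**Figure D5:**
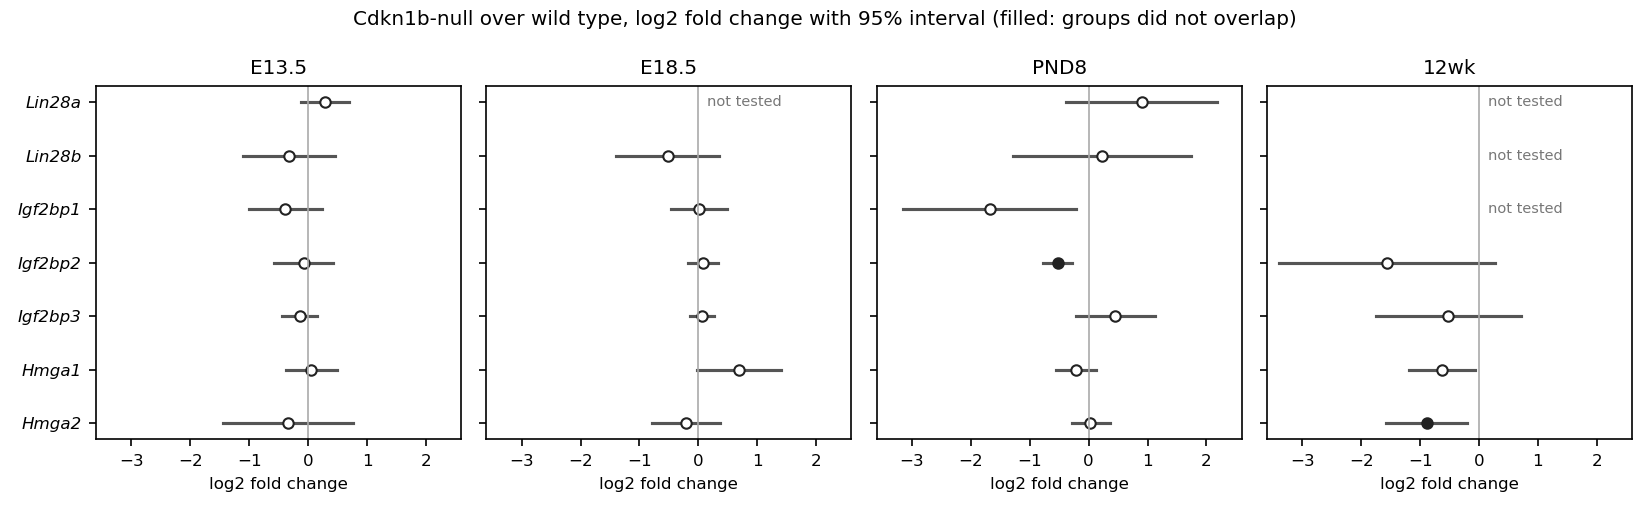
Log2 fold change of Cdkn1b-null over wild type for each gene at each age, with 95% intervals from edgeR; filled points mark genes whose genotypes did not overlap, and genes that did not pass the filter on low counts are marked as not tested. Igf2bp2 at PND8 (-0.52) and Hmga2 at 12wk (-0.89) are the filled points, and every interval at E13.5 and E18.5 includes 0.

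A change of the genotype effect with age was tested directly with the 3 interaction terms over all 29 samples. None of the 7 genes passed, beside 0.806% of the 20359 genes tested. Because the genes were chosen as lower with age in both genotypes, this count cannot show that their courses are unaffected. The adjusted p in edgeR was 0.255 for Hmga1, 0.348 for Lin28a, 0.401 for Igf2bp2, 0.489 for Igf2bp3, 0.561 for Lin28b, 0.577 for Igf2bp1 and 0.684 for Hmga2. Before adjustment Hmga1 and Lin28a had p of 0.0144 and 0.0353 in edgeR. DESeq2's likelihood ratio test gave Lin28a an adjusted p of 0.0482 and passed 706 genes in all, beside 164 in edgeR. With the replicate number as a block, Igf2bp2 passed in edgeR (adjusted p = 0.0141). The differences between genotypes in the course of Igf2bp2 and Lin28a are therefore called in 1 alternative each and not in the unblocked edgeR test.

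The surrounding pathway was followed through 5 gene lists that hold 74 matched genes, with the 7 genes left out. Between E13.5 and E18.5 in wild type, 6 of 72 tested list genes rose and 28 fell, beside 34% of all genes called. Between E18.5 and PND8, 35 rose and 23 fell beside 74.6%, and between PND8 and 12wk 10 rose and 25 fell beside 30.5%. Cdkn1b-null ovaries had 7 and 22 (30.2% of all genes called), 35 and 25 (77.4%) and 4 and 27 (29.1%) at the same steps. The last of these became 1 and 17 without the PND8 replicate 3 and 3 and 17 without the PND8 replicate 1. The first and last steps thus had more list genes falling than rising. The reverse across birth held for the lists together but not for each. In wild type 17 microRNA-processing genes rose and 0 fell, and 12 let-7 targets rose and 5 fell. More genes fell than rose among RNAs bound by Igf2bp proteins (5 and 3), fetal growth genes (9 and 3) and high mobility group genes (6 and 1).

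Of the 21 genes that process microRNAs or work with Lin28, most rose across birth. In wild type 17 rose and 0 fell from E18.5 to PND8, beside 37.6% of all genes rising, with a median log2 difference of 1.67 against 0.01 over all genes. The other 4, Tut7, Tarbp2, Prkra and Ago4, named after their values were seen, had log2 differences of 0.29, 0.03, -0.02 and -0.13 and did not pass. Cdkn1b-null ovaries also had 17 rising and 0 falling, beside 38.9% and 38.5% of all genes, with a median of 1.74. Msi1, an RNA-binding protein that can act with Lin28 on let-7 precursors, rose by 3.48 (SE 0.211, adjusted p = 3.07e-07 in edgeR), from 5.23 ± 1.58 to 62.2 ± 7.52 CPM (SD, n = 4 each). In the wild-type step before, from E13.5 to E18.5, 2 rose and 6 fell, beside 16.6% and 17.5% of all genes. Ago4, an Argonaute protein that loads microRNAs, rose by 1.53 and Hnrnpa1, a splicing factor that binds let-7 precursors, fell by 1.55 on the log2 scale, with adjusted p of 0.00661 and 4.94e-05 in edgeR. From PND8 to 12wk 3 rose and 4 fell, beside 16.1% and 14.3% of all genes. Ago4 was higher by 0.6 (adjusted p = 0.0341 in edgeR) and Hnrnpa1 was lower, with a log2 difference of -0.46 (adjusted p = 0.0057). The late Ago4 call was lost without the PND8 replicate 1, 2 or 4 or the 12wk replicate 1 or 2, with adjusted p of 0.0579 to 0.0941, as well as with replicate number as a block (adjusted p = 0.0765).

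Known let-7 targets other than the 7 genes did not share 1 direction. Of 23, all tested, 3 rose and 9 fell from E13.5 to E18.5, 12 rose and 5 fell across birth, and 4 rose and 6 fell from PND8 to 12wk in wild type. Over all genes, 16.6% rose and 17.5% fell in the first step, 37.6% and 36.9% in the second and 16.1% and 14.3% in the third. The seed match stood in 16 of the 23 UTRs. Trim71, a germ and stem cell ubiquitin ligase gene, was 30.5, 13.6, 6.79 and 0.268 CPM at the 4 ages and fell by 4.6 on the log2 scale in the last step (SE 1, adjusted p = 0.00914 in edgeR). Its log2 difference was -7.18 without the 12wk replicate 3. The D-type cyclin gene Ccnd1 fell by 2.65 in the first step (adjusted p = 0.00365, with a log2 difference of -1.86 without the E13.5 replicate 1), while Thbs1, an antiangiogenic matrix protein gene, rose by 3.07 (adjusted p = 0.000106). Across birth the insulin signalling adaptor Irs2 rose by 2.83 and Prtg, a cell adhesion receptor of the early embryo, fell by 1.76. Nr6a1, the orphan nuclear receptor gene of germ cells, rose by 1.03 from PND8 to 12wk (adjusted p = 0.0116).

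Of the 10 RNAs known to be bound by Igf2bp proteins, 9 were tested in the first 2 wild-type steps: 1 rose and 4 fell in the first, beside 16.6% and 17.5% of all genes, and 3 rose and 5 fell in the second, beside 37.6% and 36.9%. In the third, 3 of 10 rose and 2 fell, beside 16.1% and 14.3%. Igf2, the fetal growth factor that named the family, was 658, 359, 40.6 and 7.9 CPM at the 4 ages and fell by 2.29 in the last step (SE 0.298, adjusted p = 0.000935 in edgeR). Its imprinted neighbour H19 fell by 3.43 across birth (SE 0.182, adjusted p = 1.57e-07). Myc, whose coding region Igf2bp1 protects, did the opposite across birth and rose by 2.23 (SE 0.134, adjusted p = 2.88e-07). The cell surface receptor gene Cd44 rose by 2.06 and the kinase gene Mapk4 fell by 3.36 in the first step, and Cd24a rose by 0.53 in the last.

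The 13 imprinted and Plag-family genes of fetal growth had more members falling than rising at every wild-type step: 7 fell and 0 rose, then 9 fell and 3 rose, then 8 of 12 tested fell and 0 rose. All genes falling at these steps were 17.5%, 36.9% and 14.3%, and all genes rising were 16.6%, 37.6% and 16.1%. Phlda2, a placental growth restrictor, fell by 6.63 in the first step (SE 0.233), the gene of the cell cycle inhibitor p57 Cdkn1c fell by 4.85 across birth (SE 0.291), and Dlk1, a Notch-like ligand gene of progenitors, fell by 3.44 in the last (SE 0.425), with adjusted p of 5.45e-07, 2.88e-07 and 0.000753 in edgeR. Plagl1, a zinc finger regulator of this network, rose by 2.12 across birth. Of the 10 other high mobility group genes, 9 were tested: 4 fell in the first wild-type step, 6 fell and 1 rose across birth, and 6 fell in the last. Hmgb2 fell by 0.9 and then by 0.85 in the first and last steps, and across birth Hmgn2 fell by 2.11 while Hmgn5 rose by 0.81. Hmga1 and Hmga2, higher at PND8 than at E18.5 in wild type, thus had a direction that, among the 9 tested relatives, passed the test for Hmgn5 alone.

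Genotype calls in these lists were 0 of 72 tested at E13.5, beside 0.00606% of all genes, and 0 of 71 at 12wk, beside 0.0115%. At E18.5, 3 of 72 were higher in Cdkn1b-null ovaries, beside 3.32% of all genes, and 1 was lower, beside 1.67%. At PND8, 0 of 71 were higher, beside 0.045%, and 1 was lower, beside 0.304%. Counts this small are not read as a trait of the lists. At E18.5 Ccnd2, the D-type cyclin gene of granulosa cells, was lower in Cdkn1b-null ovaries, with a log2 difference of -0.83 (SE 0.108, adjusted p = 0.00227 in edgeR), while Hnrnpa1 was higher by 0.48 (adjusted p = 0.0211) and the chromatin protein gene Hmgb1 by 0.46 (adjusted p = 0.0246). Peg3, an imprinted zinc finger gene named here after its value was seen, was higher by 0.58 (adjusted p = 0.0349). At PND8 Ccnd1 was lower, with a log2 difference of -0.85 (SE 0.11, adjusted p = 0.0371). Ccnd2 remained called without any 1 of the 8 libraries. Hnrnpa1 remained called without the wild-type replicate 1 or 2 or the Cdkn1b-null replicate 2, and Hmgb1 without the wild-type replicate 1 or 2; both lost the call without any other library of that age, with adjusted p up to 0.0861 and 0.096. Ccnd1 remained called without the wild-type replicate 3 or the Cdkn1b-null replicate 1 and lost the call without any other PND8 library, with adjusted p from 0.0713, with the replicate block (0.085) and with all groups in 1 fit (0.903). Peg3 remained called without the wild-type replicate 2 or 4 and lost the call without any other E18.5 library, with adjusted p from 0.0568 to 0.134, and with all groups in 1 fit (adjusted p = 0.313). The count at E18.5 ran from 1 to 10 when a library was left out, with 1 without the wild-type replicate 3 or the Cdkn1b-null replicate 3 or 4 and 10 without the wild-type replicate 2, and it was 15 in DESeq2. At PND8 the count was 6 in DESeq2 and 0 with the block or with all groups in 1 fit, and at 12wk it was 4 in DESeq2 and 2 with all groups in 1 fit. Calls over the whole table moved under these settings too. They ran from 246 to 1372 at E18.5 when a library was left out. DESeq2 called 824 genes at PND8 and 326 at 12wk, beside 62 and 2 in edgeR. Whole-table counts for the other settings are given in the closing section.

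Among 12830 other genes with a mean of at least 2 CPM, likeness to each of the 7 genes was measured as the root mean square difference of centred log2 CPM over the 29 samples, where 0 is an identical course. Lin28a was closest to the germ cell pluripotency factor gene Sall4 (0.9) and to Foxr1 (0.91), against a median of 3.07 over all genes. Sall4 had the same shape, at 83.2, 0.596, 2.56 and 1.26 CPM in wild type at the 4 ages. Lin28b was closest to the pluripotency marker Zfp42 (0.63) and to the meiotic gene Hsf2bp (0.65), with a median of 2.7. Igf2bp3 was closest to the germ cell helicase gene Ddx4 (0.61) and to Pax8 (0.63), a transcription factor gene of the mesonephros and the oviduct, with a median of 3.22. The 5 mesonephros markers, which include Pax8, summed to 34.4 to 198 CPM at E13.5, 5.29 to 51.9 CPM at E18.5 and at most 4.28 CPM later. Their part in the Igf2bp3 values was not tested.

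Igf2bp1 was closest to Dmrt1 (1.02), the gonadal sex regulator, and to the homeobox gene Rhox6 (1.24), with a median of 4.12. Igf2bp2 was closest to Usp29 (0.52) and Peg3 (0.78), which are neighbouring imprinted genes, with a median of 2.51. Hmga1 was closest to Psat1 (0.47), a serine synthesis enzyme gene, and Gar1 (0.51), a ribonucleoprotein gene, with a median of 1.23. Hmga2 was closest to Gldc (0.95), a glycine cleavage enzyme gene, and Sept3 (0.96), a septin gene, with a median of 2.17. Within the 7, the pair most alike was Lin28b and Igf2bp3 (0.95), and only 12 other genes were closer to Igf2bp3 than Lin28b was. Lin28a was closer to Hmga2 (1.28) than to Lin28b (2.39), with 8 other genes nearer to it than Hmga2, and Hmga2 was closest to Hmga1 (1.21), with 12 other genes nearer to it. Seen from Hmga1, Hmga2 was the nearest of the 7, but 6247 other genes were nearer, which is about as many as for a typical gene. The Lin28 paralogues thus did not pair by course. All libraries share the changing cell makeup of the ovary in this measure, which is a description over 29 samples.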

How the data were processed

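The authors deposited 1 table of RSEM expected counts per gene, estimates of read numbers (31.4% of the values above 0 were not whole). Per the submitters' processing notes, Trim Galore, FastQC 0.11.5, STAR 2.5.2 and RSEM 1.3.0 were used; the order of use, genome build, annotation, library kit and strandedness are not given in the sources used here. Per the file headers, the table came from a folder of 2 combined projects, and which sample belonged to which is not stated, so project could not be tested as a batch. Column names of the samples before birth carry the letters OC and those after birth do not. Whether the projects divide there is not stated. A technical part in the steps across birth therefore cannot be told apart from age.

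Expected counts were rounded to whole numbers. Genotype was tested within each age, and each step between ages within a genotype, on those samples alone (R 4.3.3, edgeR 4.0.16, TMM scaling, filterByExpr with a minimum count of 10 and a minimum total of 15, robust quasi-likelihood F test, Benjamini-Hochberg threshold 0.05). Standard errors are the log2 fold change over the square root of F. The interaction was an F test of 3 coefficients. Symbols matched 51633 of 51912 IDs. Positions (1-based), exon lengths and UTRs were taken from GENCODE M21 (GRCm38); the authors may have used another annotation. The procedure was tested on simulated data. Replicates of a group were compared in all 39 pairs, none of which agreed within sampling noise (chi-square per degree of freedom 13 to 285).

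The 7 genes and all gene lists were chosen with earlier results of these data known. Named genes are those 7; Cdkn1b; per list and wild-type step the called gene with the largest rise and fall at a mean of at least 2 CPM; per genotype effect up to 3 called list genes with the smallest p; described markers; and the 2 genes most alike to each of the 7 (log2 CPM, prior count 2). Alternatives were RLE size factors, no filter, DESeq2 1.42.0, limma-voom (limma 3.58.1) with sample weights, all 8 groups in 1 fit, the replicate number as a block, each replicate left out, plain library totals, and haemoglobin genes left out.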

Additional observations from a re-analysis of the deposited data

Results flagged for a closer look

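In 35 gene-by-group sets of 4 libraries, 3 held a library far from the others by Dixon's test, and chance alone flags about 1 set in 20. Lin28a in the wild-type E18.5 replicate 2 was 1.84 CPM, against 0.103 to 0.293 CPM in the other 3. Igf2bp1 in the wild-type E18.5 replicate 3 was 12.7 CPM, against 15.4 to 16 CPM. Igf2bp2 in the wild-type E13.5 replicate 2 was 275 CPM, against 164 to 177 CPM.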

How the results depend on the processing

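None of the 7 genes was called for genotype in any of the 174 estimates that left out 1 replicate. Over all 318 alternative estimates, 2 became called (Igf2bp2 at PND8 in DESeq2 and with no filter) and 15 turned direction. Blocking on replicate number turned the Igf2bp2 difference at E13.5 to 0.11 and that of Igf2bp1 at E18.5 to -0.04. With each replicate left out, estimates that turned ran, at E13.5, from -0.28 to 0.13 for Igf2bp2, -0.05 to 0.25 for Hmga1 and -1.08 to 0.03 for Hmga2; at E18.5, from -0.17 to 0.15 for Igf2bp1 and -0.35 to 0.05 for Hmga2; and at PND8, from -0.11 to 0.75 for Lin28b and -0.06 to 0.14 for Hmga2.

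Counts of genes called for genotype over the whole table moved more. At E13.5 the count of 1 became 65 in DESeq2 and 59 with all groups in 1 fit. At E18.5 814 became 1685 in DESeq2 and 1735 in limma-voom. At PND8 62 became 258 with no filter, 824 in DESeq2, 169 in limma-voom, 8 with the block and 0 with all groups in 1 fit. At 12wk 2 became 12 with no filter, 326 in DESeq2, 7 in limma-voom, 10 with the block and 68 with all groups in 1 fit. The interaction count of 164 became 706 in DESeq2's likelihood ratio test. Leaving out a replicate gave 0 to 1, 246 to 1372, 0 to 147 and 0 to 3 genes at the 4 ages, 72 to 235 for the interaction and 2642 to 5129 for the Cdkn1b-null step from PND8 to 12wk, whose count was 5071. The cause of these differences was not tested.

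Replicate numbers are shared between genotypes, and deviations of same-numbered samples correlated at -0.096 to 0.161. The means were -0.017, 0.102, 0.083 and 0.092 at the 4 ages in order. The same-numbered Cdkn1b-null library was the best match to the wild-type one in 1 of 3, 3 of 4, 2 of 3 and 2 of 3 cases. The labels do not say that the numbers pair samples, so the replicate block is given as an alternative. With it, the interaction count was 156 and the adjusted p of Igf2bp2 in the interaction was 0.0141 in edgeR, beside 0.401 without it. Depth limits Lin28a, Lin28b and Igf2bp1 after birth, where a library's floor of 3 counts is 0.0693 to 0.231 CPM over all libraries.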
